A study of Mus musculus with 4 samples.

Results

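The genes described here are Ccl2, Ccl7, Cxcl1, Cxcl5, Cxcl12, Csf1, Il6, Lif, Ptgs2 and Ptx3, chosen as a named list of secreted inflammatory genes plus Ptgs2. The choice was made with earlier results of these data known. These genes are 10 of the 18193 genes that the array names, and 20 probe sets read them. Chemokines are small secreted proteins that attract leukocytes by binding receptors on their surface, and cytokines such as Csf1, Il6 and Lif signal to cells that carry the matching receptor. Fibroblasts are a well-known source of both, and stimuli that activate NF-κB, a transcription factor held in the cytoplasm by inhibitors until a signal arrives, induce many of these genes. Ptgs2, also called COX-2, is the inducible enzyme that starts prostaglandin synthesis, and Ptx3 is a secreted pentraxin, a soluble pattern recognition protein of innate immunity.

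The study profiled reprogramming mouse embryonic fibroblasts (MEFs), that is, differentiated cells on their way to pluripotency. Cells were fixed, permeabilized, stained and sorted into 4 fractions. In the order of the gates, these were the Oct4-negative fraction, then Oct4+Klf4-negative cells, then Oct4+Klf4+EpCAM-negative cells, and last Oct4+Klf4+EpCAM+ cells. Oct4 and Klf4 are transcription factors used for reprogramming and EpCAM is an epithelial surface protein. The labels name no strain, genotype, age, day of sorting, introduced factors or way of delivery, and the culture that gave the Oct4-negative fraction is not named as that of the others. They give no Klf4 gate for Oct4-negative cells and no EpCAM gate for Oct4+Klf4-negative cells. Each fraction was read on 1 array, so no difference has a replicate check, no test was possible, and precision is limited by that number. In such bulk RNA, fewer cells of a type and less RNA per cell cannot be told apart.

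Values are log2 levels of probe sets, and a gene is represented by its brightest probe set. A gene counted as measured if it reached a floor of 4.53, the median over the whole table, and 9 of the 10 genes reached it on at least 1 array. The background ceiling, 2.94, is the brightest value among 27 control probe sets for bacterial transcripts. The call of higher or lower needed a 2-fold difference, which is 1 on the log2 scale, with the brighter level at or above the floor. The sorted transcripts Pou5f1, which encodes Oct4, and Epcam were highest in the fractions sorted for them, while the 2 probe sets of Klf4 had opposite differences at the Klf4 gate. Of 18 fibroblast markers 16 reached the floor, with Pdgfra and Fap below it on all 4 arrays.

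Across the gates the 9 measured genes did not share 1 course. Ccl2, Cxcl5, Cxcl12 and Lif were lower past 2-fold at the Oct4 gate and at no later gate. Ccl7 and Cxcl1 were lower at the Oct4 gate and lower again at the Klf4 gate. Csf1 was within 2-fold at the Oct4 gate and was lower at the Klf4 gate. Ptx3 was higher at the Oct4 gate and then lower at the Klf4 gate, whereas Ptgs2 was lower at the Oct4 gate and higher at the Klf4 gate. At the EpCAM gate none of them was called.

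**Figure D1:**
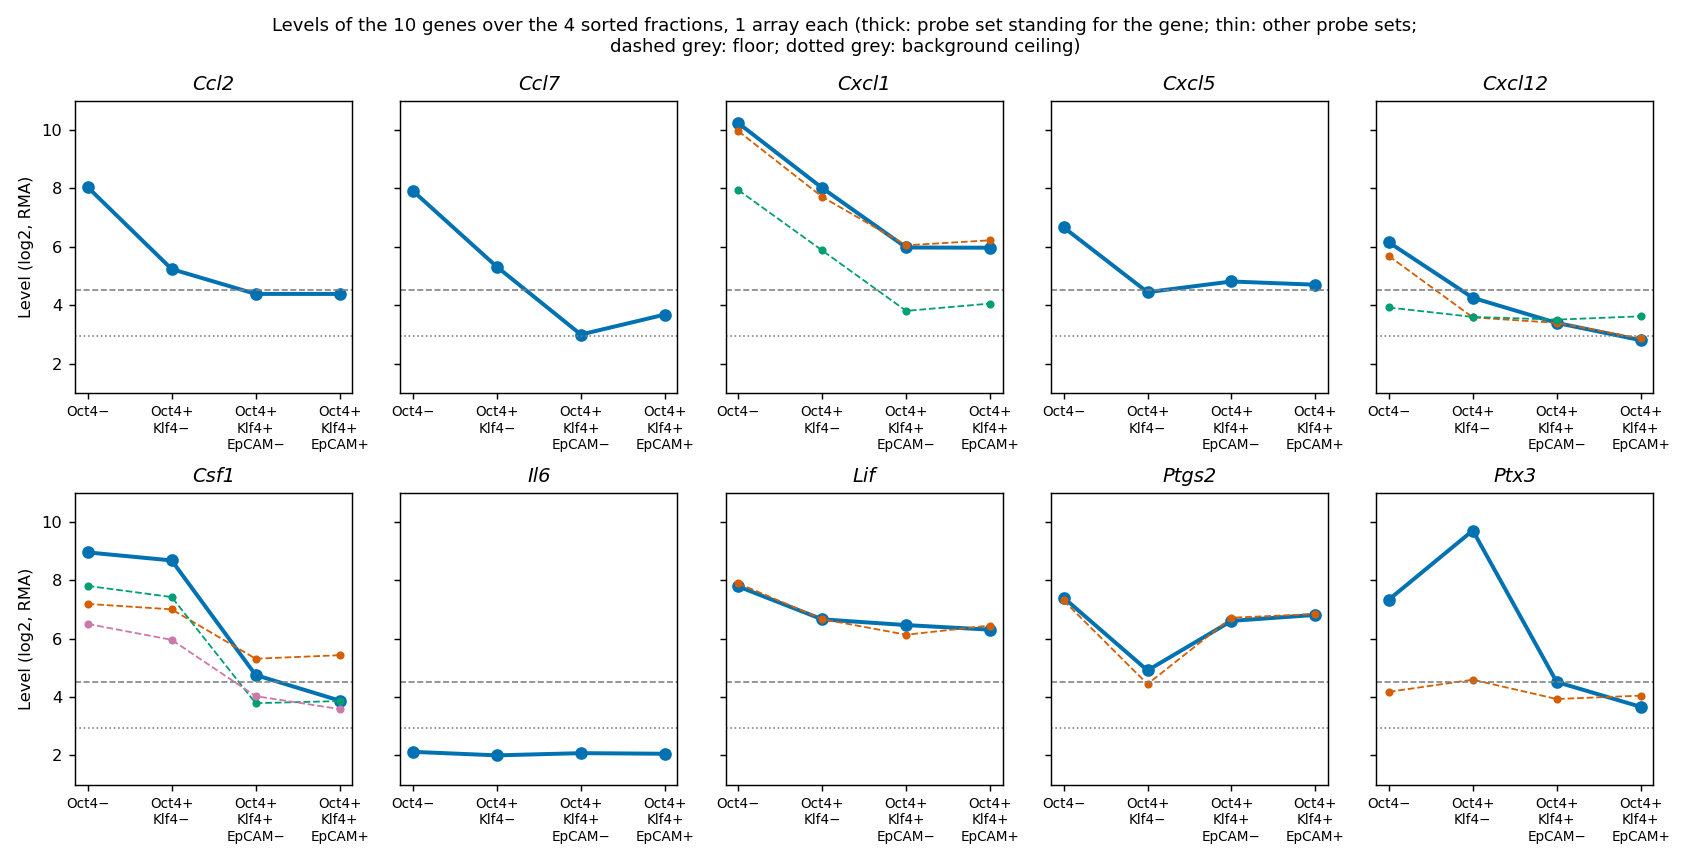
Log2 level (vertical axis) of each probe set of the 10 genes in the 4 sorted fractions (horizontal axis, gate order), 1 array each. Thick lines are the probe set that represents the gene, thin dashed lines are its other probe sets, and the grey lines mark the floor of 4.53 and the background ceiling of 2.94. Ccl2, Ccl7 and Cxcl1 descend from the Oct4-negative array, Csf1 stays high until the Klf4 gate, Ptx3 peaks at 9.70 in Oct4+Klf4-negative, and Ptgs2 dips to 4.91 there.

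The sequences just upstream of Cxcl1, Csf1, Ptgs2 and Ptx3 are shown because these genes took different courses over the gates. They are from RefSeq, build GRCm38.p6, and each runs 5′ to 3′ on the strand of its gene over the 200 bases that end just before the transcription start. The regions are chr5:90891045-90891244 on the plus strand for Cxcl1, chr3:107760470-107760669 on the minus strand for Csf1, chr1:150099831-150100030 on the plus strand for Ptgs2 and chr3:66219687-66219886 on the plus strand for Ptx3. Capitals mark matches to the NF-κB consensus in Cxcl1 and Csf1 and to the C/EBP motif TTGCNNAA in Ptgs2 and Ptx3, each searched on both strands.
Cxcl1: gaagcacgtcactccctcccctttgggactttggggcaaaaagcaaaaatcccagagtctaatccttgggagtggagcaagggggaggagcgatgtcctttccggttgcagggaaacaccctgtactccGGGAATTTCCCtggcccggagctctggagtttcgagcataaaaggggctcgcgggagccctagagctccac
Csf1: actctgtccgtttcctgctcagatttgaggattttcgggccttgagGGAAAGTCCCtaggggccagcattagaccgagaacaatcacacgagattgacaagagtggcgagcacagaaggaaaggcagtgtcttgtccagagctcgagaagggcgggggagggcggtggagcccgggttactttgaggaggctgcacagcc
Ptgs2: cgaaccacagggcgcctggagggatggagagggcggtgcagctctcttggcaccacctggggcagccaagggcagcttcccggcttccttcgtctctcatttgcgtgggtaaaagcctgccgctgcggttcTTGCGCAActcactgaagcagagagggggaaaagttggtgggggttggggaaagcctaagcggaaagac
Ptx3: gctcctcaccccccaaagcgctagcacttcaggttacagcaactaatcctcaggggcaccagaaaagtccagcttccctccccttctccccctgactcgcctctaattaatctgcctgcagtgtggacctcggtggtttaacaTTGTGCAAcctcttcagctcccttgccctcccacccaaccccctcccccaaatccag

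The search covered the 250 bases before the start, a window held for 7 of the 10 genes. The NF-κB consensus was found in 4 of the 7, Cxcl1, Csf1, Il6 and Lif, and in 7.25% of all 32851 windows of the same length. In Cxcl1 the match starts at position -71, counted from the transcription start, and a second match on the other strand starts at -70 and overlaps it. The Csf1 and Ptx3 matches shown are on the strand opposite to the gene. TTGCNNAA was found in 3 of the 7, Il6, Ptgs2 and Ptx3, against 9.56% of all windows. The AP-1 motif TGANTCA, also searched on both strands, was in 2 of the 7, Il6 and Lif, against 6.75% of windows. TATAAA on the gene's own strand was in 0 of the 7, against 7.59%. Matches to different motifs did not overlap in these 7 windows. A match describes letters in the window and is no measure of binding.

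The CC chemokines Ccl2 and Ccl7 attract monocytes through the receptor Ccr2. Ccl2 had levels, in gate order, of 8.04, 5.24, 4.39 and 4.39. It was therefore high in Oct4-negative alone, below the floor after the Klf4 gate, and equal to the second decimal on both sides of the EpCAM gate. The Oct4 gate carried 76.7% of its total log2 difference of -3.66 between Oct4+Klf4+EpCAM+ and Oct4-negative.

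Ccl7 had levels of 7.91, 5.31, 3.0 and 3.68. Its level in Oct4+Klf4+EpCAM-negative lay just above the background ceiling. Its log2 differences at the Oct4 and Klf4 gates were -2.60 and -2.32, which correspond to 6.05-fold and 4.99-fold lower. At the EpCAM gate it differed by 0.68 on the log2 scale, short of 2-fold, with both levels below the floor. Ccl2 and Ccl7 are neighbours on chromosome 11 in the RefSeq gene order. The 4 other chemokine genes next to them, Ccl11, Ccl12, Ccl8 and Ccl1, were at most 2.62 on any array and lay below the background ceiling throughout.

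Cxcl1 and Cxcl5 are CXC chemokines that attract neutrophils through the receptor Cxcr2. Cxcl1 had levels of 10.24, 8.01, 5.98 and 5.97 in gate order, so it stayed above the floor in every fraction. Its course had a pair of near-equal drops, with log2 differences of -2.22 at the Oct4 gate and -2.04 at the Klf4 gate, and its ends differed 19.3-fold. The other probe sets of Cxcl1 gave -2.25 and -2.07 at the Oct4 gate and -1.66 and -2.07 at the Klf4 gate.

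Cxcl5 had levels of 6.67, 4.45, 4.81 and 4.70. It was lower at the Oct4 gate by 4.66-fold, and its 3 later levels lay within 2-fold of each other and near the floor. Cxcl1 and Cxcl5 belong to 1 cluster of 7 chemokine genes on chromosome 5. The 5 others there, Ppbp, Pf4, Cxcl3, Cxcl15 and Cxcl2, stayed below the floor on all 4 arrays, the highest of their levels being 4.08 for Ppbp in Oct4-negative.

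Cxcl12 is the chemokine that holds blood-forming cells in the bone marrow, through the receptor Cxcr4. It had levels of 6.15, 4.25, 3.39 and 2.80, stepping down at each gate, although the call at the Oct4 gate (3.73-fold lower) was the one above 2-fold. Its level in Oct4+Klf4+EpCAM+ lay under the background ceiling, and between the ends it was at least 9.27-fold lower. Its log2 difference there was -3.35, or -2.16 with the mean of its probe sets. A second probe set had levels of 5.69, 3.58, 3.39 and 2.86, while the third never reached the floor.

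Csf1 is the growth factor on which macrophages depend. It had levels of 8.95, 8.68, 4.75 and 3.88, so Oct4+Klf4-negative was as high as Oct4-negative to within 1.21-fold, and both fractions past the Klf4 gate were low. The Klf4 gate carried 77.3% of its end-to-end difference, and the Csf1 level there was 15.2-fold lower. All 4 Csf1 probe sets were lower at that gate past 2-fold, with log2 differences of -1.69, -1.93, -3.63 and -3.92 and a mean of -2.79. At the Oct4 gate the same 4 probe sets gave between -0.54 and -0.19.

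Lif and Il6 are cytokines that signal through the shared receptor chain gp130, encoded by Il6st, and Lif is the factor added to culture medium to keep mouse embryonic stem cells pluripotent. Lif had levels of 7.79, 6.66, 6.46 and 6.31. It was 2.18-fold lower at the Oct4 gate, close to the size that a call needs, and the 3 Oct4-positive fractions lay within 2-fold of each other. Its other probe set gave -1.22 at that gate, against -1.13 for the brightest. Il6 had levels of 2.12, 2.0, 2.08 and 2.06 by its single probe set, below the background ceiling on all 4 arrays, so no difference is given for it.

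Ptgs2 had levels of 7.40, 4.91, 6.61 and 6.81 in gate order. The Oct4+Klf4-negative array was thus the low one, with the other 3 within 2-fold of each other. Ptgs2 was 5.63-fold lower at the Oct4 gate and 3.24-fold higher at the Klf4 gate, and the second probe set gave log2 differences of -2.86 and 2.27. Its ends differed by -0.59 on the log2 scale, which made it the 1 measured gene of the 9 without a call between Oct4+Klf4+EpCAM+ and Oct4-negative. No Ptgs2 level reached the 75th percentile of all values on either side of the Klf4 gate, so with the floor there its call as higher at that gate was lost.

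Ptx3 had levels of 7.33, 9.70, 4.51 and 3.66. It was the 1 measured gene whose highest level was not in Oct4-negative. It was 5.16-fold higher at the Oct4 gate and 36.5-fold lower at the Klf4 gate. The other Ptx3 probe set was dim, with levels of 4.18, 4.59, 3.93 and 4.05, and its log2 differences of 0.42 and -0.66 had the same directions without reaching 2-fold. With the mean of both, the log2 differences were 1.39 at the Oct4 gate, against 2.37, and -2.93 at the Klf4 gate, against -5.19.

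**Figure D2:**
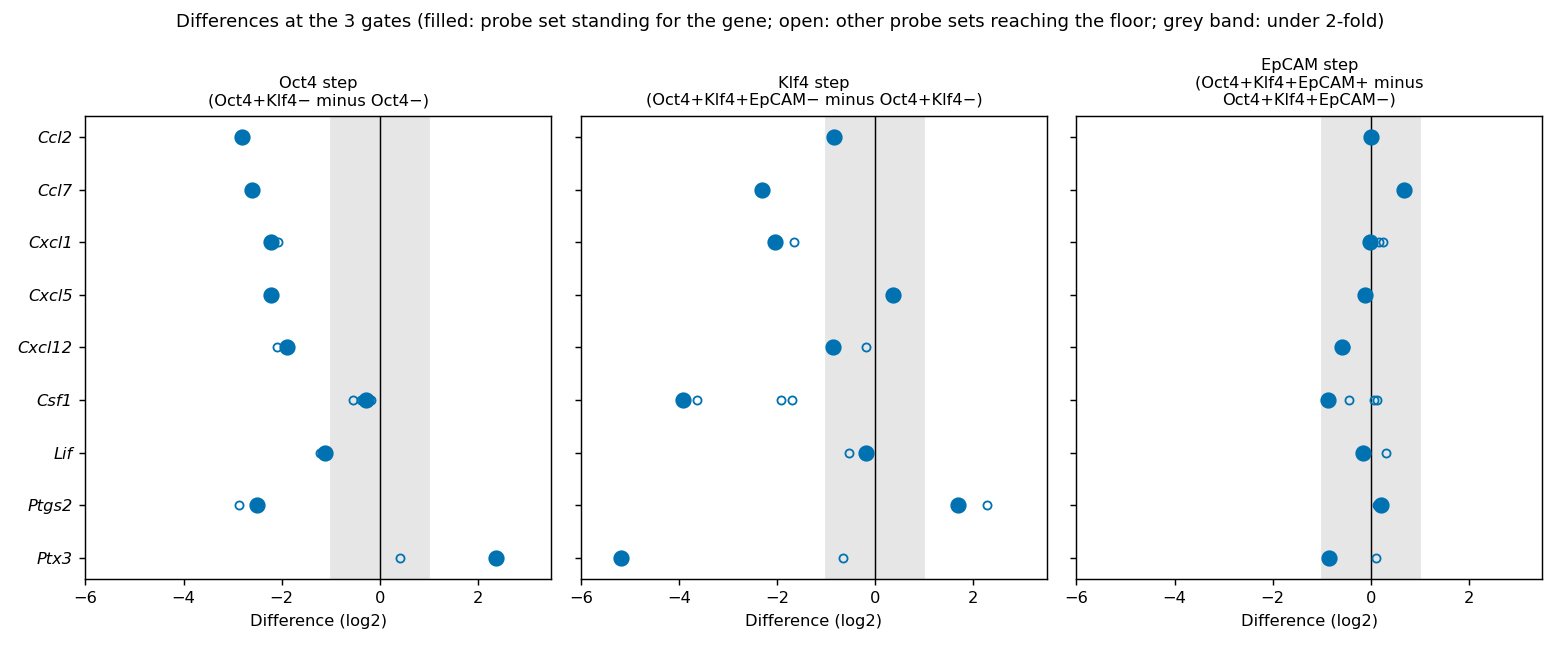
Log2 difference (horizontal axis) at each of the 3 gates for the 9 measured genes (rows), later fraction minus the one before it. Filled points are the probe set that represents the gene, open points are other probe sets that reach the floor, and the grey band holds differences under 2-fold. At the Oct4 gate 7 filled points lie left of the band and Ptx3 right of it, at the Klf4 gate Ccl7, Cxcl1, Csf1 and Ptx3 lie left and Ptgs2 right, and at the EpCAM gate each filled point is inside it.

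At the Oct4 gate, Oct4+Klf4-negative over Oct4-negative, 7 of the 9 measured genes were lower and 1, Ptx3, was higher. By the same rule 4.84% of all 11428 genes reaching the floor were lower and 3.59% were higher, 8.43% together. Because the genes were chosen with earlier results of these data known, the shares here and below describe the list and are no test. Cxcl12 reached the floor in Oct4-negative alone, which already set its direction at this gate. The median log2 difference of the 9 was -2.22, beside 0.02 over all those genes. Scaling the arrays on the median level of 15 housekeeping genes lowered the Oct4+Klf4-negative array by 0.22 relative to Oct4-negative. On each array that median was the level of Pgk1, and the median of the 15 log2 differences at this gate was 0.06. That scaling changed the split over all genes to 784 lower and 294 higher, against 553 lower and 410 higher as deposited, and left 7 of the 9 lower.

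At the Klf4 gate, Oct4+Klf4+EpCAM-negative over Oct4+Klf4-negative, 4 of the 9 were lower and 1, Ptgs2, was higher, beside 6.88% of all genes lower and 8.44% higher, 15.3% together. The median log2 difference was -0.86, beside 0.04 over all genes, and it was -2.04 over the 7 genes that reach a floor at the 75th percentile. At the EpCAM gate, Oct4+Klf4+EpCAM+ over Oct4+Klf4+EpCAM-negative, 0 of the 9 were lower and 0 higher, beside 1.79% and 3.11% of all genes, or 4.89% in either direction. The median there was -0.11, and the differences ran from -0.88 for Csf1 to 0.68 for Ccl7.

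Between the ends, Oct4+Klf4+EpCAM+ over Oct4-negative, 8 of the 9 were lower and none was higher, beside 10.8% of all genes lower and 11.9% higher, 22.6% together. The sizes ran from 2.79-fold for Lif to 33.7-fold for Csf1. The other Csf1 probe sets gave smaller log2 differences of -3.94, -2.91 and -1.76, against -5.07 for the brightest. The median log2 difference of the 9 genes was -3.66, beside 0.07 over all genes, and -2.16 with the mean of each gene's probe sets. This comparison shares its arrays with the Oct4 and EpCAM gates and is not a separate measurement. Over all comparisons the 9 genes had 21 calls, of which 13 were read by at least 2 probe sets reaching the floor, and in none of these did such a probe set have the opposite sign.

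The counts of this and the following lists are to be read beside the shares over all genes reaching the floor. These shares were 4.84% lower and 3.59% higher at the Oct4 gate, and 6.88% lower and 8.44% higher at the Klf4 gate. They were 1.79% and 3.11% at the EpCAM gate, and 10.8% and 11.9% between the ends. Receptors for these ligands, listed with the atypical chemokine receptors, were in part below the floor. Of 17 named receptor genes on the array 8 reached the floor, and Ccr2, Cxcr2, Cxcr4 and Csf1r did not do so in any fraction. The 8 include Ackr4, an atypical receptor known for other chemokines, which was not called at any gate. Among the 8, 1 was higher and 1 lower at the Oct4 gate (median log2 difference -0.42), and 3 were higher and 2 lower at the Klf4 gate (median 0.31). Ackr1, another atypical receptor, had levels of 4.18, 4.21, 6.02 and 4.81. It was 3.51-fold higher at the Klf4 gate and 2.31-fold lower at the EpCAM gate. Ackr3, an atypical receptor that takes up Cxcl12, had levels of 4.17, 3.43, 7.60 and 7.5, and was 18.0-fold higher at the Klf4 gate. The direction of Ackr3 at that gate was opposite to that of Cxcl12, whose own difference there was short of 2-fold.

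Il6ra, the ligand-binding chain of the Il6 receptor, had levels of 6.48, 3.55, 5.95 and 6.56, low in Oct4+Klf4-negative alone, as was Ptgs2. The mean of the Il6ra probe sets gave smaller log2 differences, -1.85 at the Oct4 gate, against -2.93, and 1.54 at the Klf4 gate, against 2.40. Lifr, the binding chain for Lif, had levels of 6.80, 7.01, 6.0 and 4.55, and was lower at the Klf4 gate (2.01-fold) and at the EpCAM gate (2.72-fold). With housekeeping scaling the Lifr call at the Klf4 gate was lost, at -0.89 on the log2 scale. Il6st was 2.38-fold lower between the ends, at 8.12 in Oct4+Klf4+EpCAM+ against 9.37 in Oct4-negative. Ptger4, a receptor for prostaglandin E2, had levels of 5.15, 6.34, 3.91 and 4.12, with its highest level in Oct4+Klf4-negative as for Ptx3. Its call as higher at the Oct4 gate was lost with housekeeping scaling, at 0.97 on the log2 scale.

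Ptges and Pla2g4a, which act beside Ptgs2, had the opposite direction to it at the Klf4 gate. Ptges, which makes prostaglandin E2 from the Ptgs2 product, had levels of 8.43, 6.73, 5.05 and 4.30. Pla2g4a, the phospholipase that releases arachidonic acid, had levels of 7.21, 6.13, 4.54 and 4.75. Both were lower at the Oct4 gate and again at the Klf4 gate, where Ptges was 3.20-fold and Pla2g4a 3.0-fold lower while Ptgs2 was higher. Slco2a1, a prostaglandin transporter, had levels of 4.95, 4.5, 8.01 and 8.22, and was 11.3-fold higher at the Klf4 gate. Its 4 probe sets differed in size there, from 0.18 to 3.5 on the log2 scale, with a mean of 2.30. Of the 6 measured genes of this list, 2 were lower and 0 higher at the Oct4 gate, and 2 were lower and 1 higher at the Klf4 gate, with medians of -0.61 and -0.22.

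Genes that sense inflammatory signals upstream were read from a list of receptors and adaptors, of which 13 were measured. At the Oct4 gate 5 were lower and 0 higher, with a median log2 difference of -0.93, or -0.43 with the mean of each gene's probe sets. Il1r1, the receptor for interleukin 1, had levels of 6.42, 3.96, 3.21 and 3.37. Tlr4, the receptor for bacterial lipopolysaccharide, had levels of 6.55, 3.6, 3.27 and 3.15. Both were thus above the floor in Oct4-negative alone, as was Cxcl12, so counting as measured already set their direction at the Oct4 gate. Il1r1 and Tlr4 were 5.49-fold and 7.71-fold lower there, which is -2.46 and -2.95 on the log2 scale. With the mean of probe sets these differences were -1.23 for Il1r1, whose mean level stayed below the floor, and -1.86 for Tlr4.

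Tnfrsf1b, a receptor for tumour necrosis factor, had levels of 6.64, 4.55, 5.04 and 6.31, lower at the Oct4 gate and higher at the EpCAM gate. The mean of its probe sets gave log2 differences of -1.34 and 0.80 at these gates, against -2.09 and 1.27, so the call at the EpCAM gate was lost. The co-receptor gene Cd14 was lower at the Oct4 gate (2.68-fold) and higher at the Klf4 gate (3.13-fold). At the Klf4 gate Cd14 was the 1 gene of the 13 called higher and 0 were lower, with a median of 0.27.

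The 14 measured genes for NF-κB and C/EBP factors and their feedback inhibitors had a median of -0.46 at the Oct4 gate. Of them 3 were lower and 0 higher, beside 4.84% and 3.59% of all genes. These 3 were Nfkbia, the inhibitor that NF-κB induces against itself (2.18-fold), Nfkbiz, an atypical inhibitor (3.18-fold), and Cebpb, a C/EBP factor of the acute phase response (2.68-fold). The Cebpb call was lost with the mean of its probe sets, at -0.80 on the log2 scale, which left 2 of the 14 lower. Rela, the main activating subunit, had levels of 7.63, 7.10, 7.74 and 7.87, within 2-fold throughout. At the Klf4 gate 2 were higher, Bcl3 (3.49-fold) and Tnip1 (2.13-fold), and 0 were lower, with a median of 0.39.

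NF-κB targets that are not secreted factors had a median of -0.71 at the Oct4 gate. Of the 11 measured genes 3 were lower and 0 higher, beside 4.84% and 3.59% of all genes. The 3 lower genes were Tnfaip2 (21.7-fold), Ier3 (5.04-fold) and Gadd45b (2.07-fold). With the mean of probe sets Gadd45b was at -0.79 on the log2 scale, which ended its call and left 2 lower, and Tnfaip2 was at -2.82, against -4.44. Icam1, an adhesion molecule for leukocytes, had levels of 7.88, 7.21, 4.04 and 5.99 by its 1 probe set. Like Csf1 it was lower at the Klf4 gate (9.0-fold) and not called at the Oct4 gate. Unlike Csf1, which was not called at the EpCAM gate, Icam1 was 3.85-fold higher there. Gadd45b was 2.22-fold higher at the Klf4 gate, where the 11 genes had 1 higher, 1 lower and a median of 0.46.

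**Figure D3:**
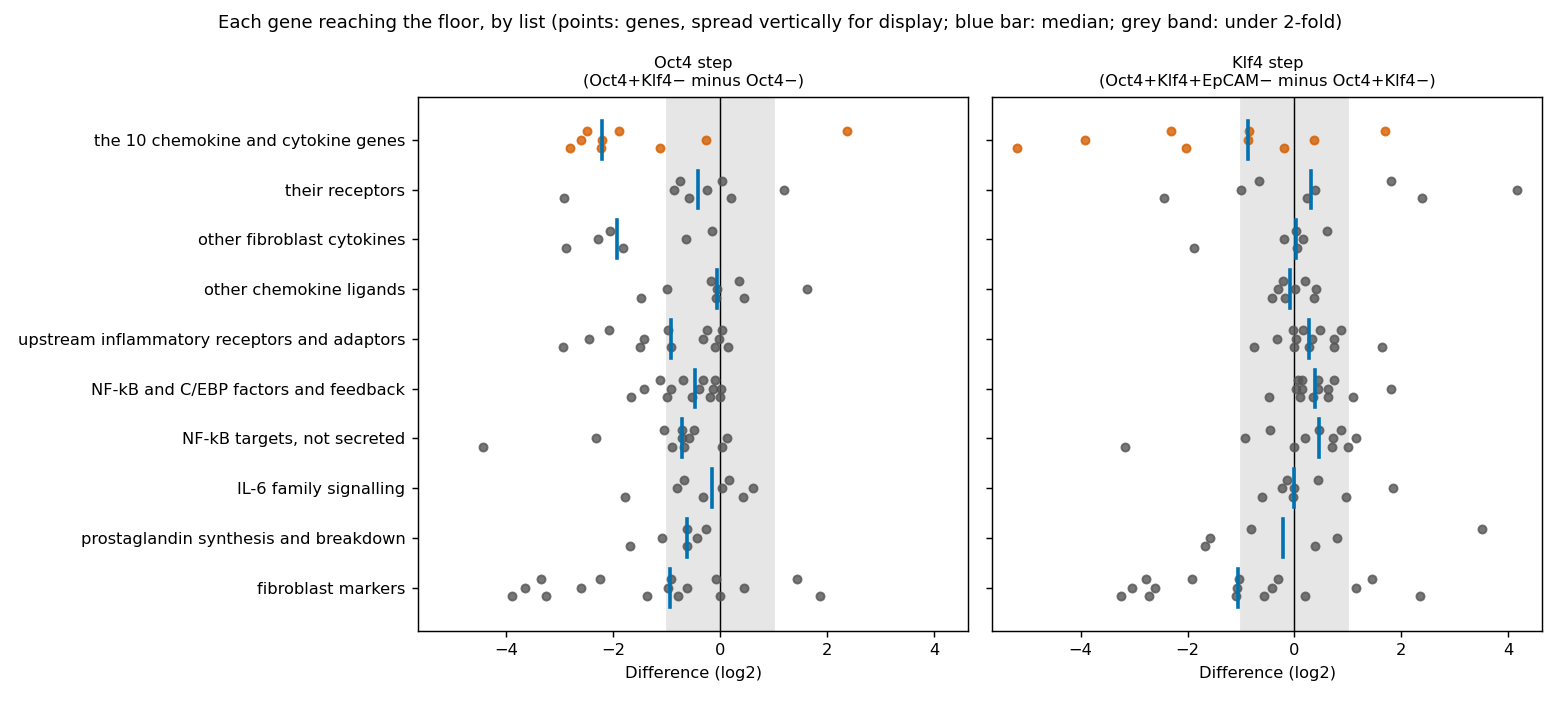
Log2 difference (horizontal axis) at the Oct4 gate (left) and the Klf4 gate (right) for each gene that reaches the floor, by list (rows). Points are genes, offset vertically for display, blue bars are list medians and the grey band holds differences under 2-fold. At the Oct4 gate the medians of the 10 genes (-2.22) and of other fibroblast cytokines (-1.94) lie left of the band. Among the latter Il1rn and Tnfsf11 reached the floor in Oct4-negative alone, as did Cxcl12 among the 10 genes. At the Klf4 gate the median of the 10 genes is -0.86 and that of other cytokines 0.03.

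Other cytokines of fibroblasts were lower in 4 of 6 measured genes at the Oct4 gate and higher in 0, with a median of -1.94. The other 12 of the 18 on the array stayed below the floor. Clcf1, a cytokine of the Il6 family, had levels of 7.41, 4.52, 5.13 and 5.20. Kitl, which encodes stem cell factor, had levels of 6.95, 4.66, 4.81 and 4.43. Both therefore had the course of Cxcl5, high in Oct4-negative and then level. Il1rn, the antagonist of interleukin 1, was 4.15-fold lower at that gate and Tnfsf11, the ligand RANKL, 3.54-fold. Both reached the floor in Oct4-negative alone, so counting as measured already set their direction at that gate. The mean of the Tnfsf11 probe sets stayed below the floor, which left 3 of 5 measured genes lower. Ctf1, cardiotrophin 1, was the 1 gene of the list lower at the Klf4 gate (3.68-fold). Tnf, Il1a, Il1b and Il11 stayed below the floor in every fraction.

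A list of 33 chemokine ligand genes, which does not hold Ppbp and Pf4, had 13 that reached the floor, 5 of them from the 10 genes and 8 others. The 8 others had 1 higher and 1 lower at the Oct4 gate and 0 called at the Klf4 gate, with medians of -0.07 and -0.08. Cx3cl1, the membrane-bound chemokine fractalkine, had levels of 6.19, 4.72, 4.51 and 4.60, and was 2.78-fold lower at the Oct4 gate. That call was lost with the mean of its probe sets, at -0.95 on the log2 scale. Cxcl14 had levels of 4.96, 6.58, 6.95 and 6.08, and was 3.08-fold higher at that gate. Cxcl16 had levels of 4.96, 4.88, 5.29 and 6.17, and was 2.32-fold higher between the ends.

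**Figure D4:**
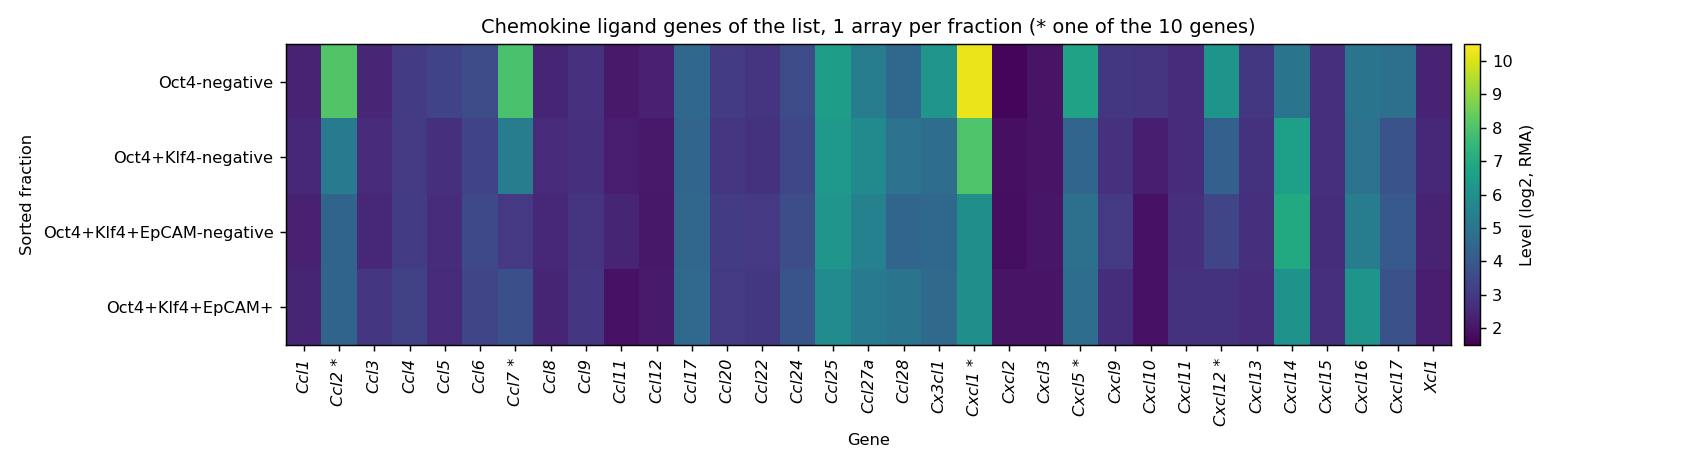
Log2 level (colour) of the 33 listed chemokine ligand genes (columns, with an asterisk for the 5 that are among the 10 genes) in the 4 sorted fractions (rows, gate order), 1 array each. Cxcl1, Ccl2 and Ccl7 are brightest in the Oct4-negative row at 10.24, 8.04 and 7.91, Cxcl14 is brighter in the Oct4-positive rows, and 20 of the 33 stay below the floor.

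The signalling list of the Il6 family had a median of -0.15 at the Oct4 gate. Of its 8 measured genes 1 was lower and 0 higher, beside 4.84% and 3.59% of all genes. That gene was Osmr, the receptor chain for oncostatin M, with levels of 7.79, 6.02, 7.85 and 7.45, so that Osmr was low in Oct4+Klf4-negative as Il6ra and Ptgs2 were. Osmr was 3.57-fold higher at the Klf4 gate, and 0 genes of the list were lower there, with a median of -0.01. Socs3, a feedback inhibitor induced by Stat3, was 2.07-fold higher at the EpCAM gate, a call lost without probe sets that can read several transcripts, at 0.54 on the log2 scale. In the list of pentraxins, complement C1q and hyaluronan matrix genes, which holds Ptx3 itself, 5 of 14 were measured, with 1 higher and 1 lower at the Oct4 gate and medians of -0.31 there and -0.75 at the Klf4 gate. Vcan, a hyaluronan-binding proteoglycan, had levels of 9.70, 9.58, 7.23 and 5.49, and with Ptx3 it was 1 of the 2 lower at the Klf4 gate, with a log2 difference of -2.35, or -1.67 with the mean of its probe sets. Nptx1, a pentraxin of neurons, had levels of 4.87, 3.24, 7.18 and 8.46, so that Nptx1 and Ptx3 had opposite directions at both the Oct4 and the Klf4 gate. The mean of the Nptx1 probe sets gave 3.08 on the log2 scale at the Klf4 gate, against 3.94.

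Likeness of course was measured as the Euclidean distance between the 4 levels of a gene, each minus the gene's own mean, over the 11428 genes reaching the floor. The values share the same 4 arrays and describe them. Nearest to the median course of the 9 genes were Fhl3 (distance 0.23), Ankrd44 (0.25), Flnc (0.29), Scube3 (0.30) and Nrp1 (0.31). Fhl3 had levels of 8.0, 6.14, 5.07 and 4.87. For Ccl7 the second nearest of all genes was Cxcl1, at 0.57. For Csf1 the nearest gene was Ptn (0.27) with levels of 9.30, 8.68, 4.94 and 4.17, for Ptgs2 it was Tinagl1 (0.20) with levels of 6.91, 4.27, 6.16 and 6.44, and for Ptx3 it was Col8a1 (0.86).

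The nearest genes to the others were Gpr176 for Ccl2 (0.14), Rhoj for Ccl7 (0.53), Gpc3 for Cxcl1 (0.26), Tnfrsf23 for Cxcl5 (0.14), Tgfb1i1 for Cxcl12 (0.19) and Ly6e for Lif (0.06). Lif had the smallest range of the 9, 1.48 on the log2 scale, and the nearest of the other 8, Cxcl5, ranked 832 among all genes by likeness to Lif. For Ptgs2 the nearest of the other 8 was likewise Cxcl5, at rank 372.

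Markers of cell types moved over the same gates. Fibroblast markers had 7 of 16 measured genes lower and 2 higher at the Oct4 gate, 9 lower and 3 higher at the Klf4 gate, and 15 lower and 1 higher between the ends. The higher ones were Thy1 and Dcn at the Oct4 gate, Col6a1, Dcn and S100a4 at the Klf4 gate, and Dcn between the ends (18.7-fold). Fbln2 reached the floor in Oct4-negative alone, so counting as measured already set its direction at the Oct4 gate and between the ends. The summed linear level of the 18 was 21169, 11799, 8240 and 4803 in gate order. In Oct4+Klf4+EpCAM+ the brightest of them were Dcn (10.98) and S100a4 (10.21). Macrophage and leukocyte markers reached the floor in 4 of 16, Cd68, Cd14, Fcer1g and Laptm5, while Ptprc, Adgre1, Itgam, Lyz2 and Csf1r did not in any fraction. Their summed linear level was 358, 191, 931 and 558, and Laptm5 had levels of 3.81, 4.69, 9.50 and 8.38. Without Laptm5 the sum was 344, 165, 208 and 223. The Laptm5 difference at the Klf4 gate turned to -0.45 on the log2 scale without probe sets that can read several transcripts. That value came from a probe set below the floor on both arrays, while the 3 Laptm5 probe sets reaching the floor there gave 1.36 to 4.81. Keratinocyte markers, of which 12 of 15 were measured, summed to 1697, 1273, 6365 and 9851, and endothelial markers, 5 of 12 measured, to 475, 509, 1058 and 1028. Tek was the brightest endothelial marker in both fractions past the Klf4 gate, with levels of 3.33, 7.49, 9.22 and 8.74 in gate order. At that gate 3 of the 5 were higher and 1, Egfl7, was lower (2.78-fold). Pecam1, Cdh5, Kdr and Vwf stayed below the floor in every fraction. The Gapdh control probe sets differed between the 3′ and 5′ ends by 1.04, 1.3, 1.04 and 0.97 on the log2 scale, most in Oct4+Klf4-negative, and those of Actb by between -0.07 and -0.05. The part of any of these in the differences of the 10 genes was not tested.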

How the data were processed

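Expression was read on Affymetrix arrays, 1 per sorted fraction. Per the labels' protocols, RNA was isolated from the fixed cells with RecoverAll, then amplified (Ovation Pico WTA) and labelled with biotin, steps that can shift transcripts according to their integrity. The deposited values are log2 levels made by RMA, per the submitters' processing notes; the RMA version is not known here. They ran from 1.31 to 14.44, with array medians between 4.49 and 4.55.

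Of 45037 probe sets besides 64 controls, 34945 had 1 gene symbol in the platform annotation, 932 had several and 9160 had none there; only the first were used. RefSeq GRCm38.p6 gave an entry for 34741 and changed 0 symbols. The probe set with the highest mean represented a gene. Analysis used Python 3.11.15, pandas 2.3.3 and numpy 2.4.6. With 1 array per group the comparisons are differences under a size rule. A fold is "at least" where the dimmer level is at or below the background ceiling. The median SD between probe sets of a gene was 0.17, 0.17, 0.12 and 0.18 in the 4 comparisons, a gauge without culture or sort variation.

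Named genes were the 10 genes, up to 4 called genes per list and comparison, other listed genes where needed, the 5 genes nearest to the median course and the nearest to each gene. The 10 genes and the lists were chosen with earlier results of these data known. Alternatives were the mean of all probe sets, a floor at the 75th percentile, no floor, a 3-fold rule and centring on housekeeping genes. Another left out probe sets that can read several transcripts, those with names ending in _x_at or _s_at. Probe sets ending in _a_at, such as that representing Csf1, were kept. Centring used the median housekeeping level, which was that of Pgk1 on each array.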

Additional observations from a re-analysis of the deposited data

How the results depend on the processing

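The counts of the 10 genes called lower kept within 1.5 times under all 6 alternatives in the 4 comparisons, and so did the counts called higher, except at the Klf4 gate with the floor at the 75th percentile, where 0 genes were higher because neither Ptgs2 level reached it. Medians moved by more than the scatter between probe sets in 3 cases: to -2.44 at the Oct4 gate with arrays centred on housekeeping genes, to -2.04 at the Klf4 gate with the floor at the 75th percentile, which left 7 genes, and to -2.16 between the ends with the mean of all probe sets. Of the differences of single genes among the 10, 16 moved by more than that scatter with the mean of all probe sets, 10 with housekeeping centring and 2 without probe sets that can read several transcripts, and none that had been called changed sign. Among the called genes of the other lists, Laptm5 changed sign when such probe sets were left out. Its difference turned to -0.45 at the Klf4 gate and 0.38 at the EpCAM gate, and the cause was not tested. The probe set then used lay below the floor on the arrays compared. The 3 Laptm5 probe sets reaching the floor there kept the sign of the call. Over all genes, the 3-fold rule left 279 lower and 201 higher at the Oct4 gate, 383 and 547 at the Klf4 gate, 75 and 150 at the EpCAM gate and 684 and 798 between the ends. The floor at the 75th percentile left 303 and 191, 443 and 495, 59 and 162, and 731 and 797 in the same order. The deposited values gave 553 and 410, 786 and 965, 204 and 355, and 1231 and 1357. The alternatives for the other lists were added after seeing the data. No paired analysis was possible because each fraction has 1 array. Signal limits Il6, which lay under the background ceiling on all 4 arrays, and Cxcl12 in Oct4+Klf4+EpCAM+.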
